A study of Homo sapiens with 9 samples.

Results

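MYC and the proteins that share its partner MAX were followed as transcripts in PANC-1 cells, an established human pancreatic ductal carcinoma line, after knockdown of SIRT6 or of KDM5C. The 10 genes were chosen by name from 36753 genes with values: the activators MYC and MYCL, their partner MAX, the MAX-bound repressors MXD1, MXD3, MXD4, MXI1 and MNT, the MAX-bound Polycomb scaffold MGA, and MLXIP of the parallel MLX branch. Cells were transfected for 48 hours with siRNA to SIRT6 (siSIRT6), with siRNA to KDM5C (siKDM5C) or as controls, with 3 libraries in each group. SIRT6 is a sirtuin deacylase that removes acetyl groups from histone H3, and KDM5C is a demethylase of histone H3 lysine 4. The labels give no other allele or agent, and the sources used here do not name the siRNA sequences. All 9 libraries come from 1 cell line, and whether a group's 3 libraries were separate cultures is not stated in the labels. The p-values therefore reflect only how far libraries of a group vary, which may be technical.

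MAX is the obligate partner through which MYC binds DNA, at the E-box CACGTG and close variants. The MXD proteins, MXI1 and MNT bind MAX at the same sites and recruit SIN3 and histone deacetylases, so they act as antagonists of MYC. MGA ties MAX to a Polycomb complex, PRC1.6, that silences germline genes. MLXIP (MondoA) pairs with MLX in place of MAX and activates genes in response to glucose metabolites. In pancreatic carcinoma MYC is a well-studied driver of growth and of metabolic rewiring.

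The files give FPKM, fragments scaled to 1 length per gene and to the reads in genes of each library. That length equalled the annotated exon union for 58.9% of genes and need not match the transcripts expressed. Levels set side by side between genes, and their orders and ratios, are therefore approximate. The libraries held between 18201413 and 26910441 reads in genes. SIRT6 averaged 0.597 ± 0.172 FPKM in siSIRT6 cells, 5.01 ± 0.397 FPKM in siKDM5C cells and 6.18 ± 1.00 FPKM in control cells (SD, n = 3 each). KDM5C averaged 3.61 ± 0.290 FPKM in siKDM5C cells, 17.8 ± 0.139 FPKM in siSIRT6 cells and 18.4 ± 0.389 FPKM in control cells. The carcinoma markers KRT8, KRT18 and KRT19 and the mesenchymal marker VIM were high in every group, while PTPRC, PECAM1, VWF, CDH5, PRSS1 and CPA1 were near 0. The epithelial marker EPCAM was low, at 1.56 FPKM in siSIRT6, 2.93 FPKM in siKDM5C and 0.988 FPKM in control cells. It was called higher in both knockdowns (0.36 log2 after siSIRT6, 0.98 log2 after siKDM5C). The 5 epithelial markers listed were KRT7, KRT8, KRT18, KRT19 and EPCAM. Of these, 3 were called higher and 1 lower after siSIRT6 (23.9% and 26.9% of all genes were). After siKDM5C only EPCAM was called higher and 3 were called lower (25.6% and 25.9% of all genes were). The myeloid marker CD14 was at 1.70 FPKM in siSIRT6, 1.96 FPKM in siKDM5C and 2.97 FPKM in control cells and was called lower in both (−0.55 log2 after siSIRT6, −0.42 log2 after siKDM5C). The summed level of 5 epithelial markers ranged over 1398 to 1513 FPKM in siSIRT6 cells, 695.5 to 856.2 FPKM in siKDM5C cells and 1091 to 1143 FPKM in control cells, and its part in the results below was not tested.

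Differences were tested with limma on log2(FPKM + 1) over all 9 libraries, and a gene was called at a Benjamini-Hochberg adjusted p under 0.05 over 16135 genes, those that reached 1 FPKM in 3 or more libraries. In bulk RNA, fewer cells with a transcript and less of it per cell cannot be told apart. Fold changes are differences on this log2(FPKM + 1) scale, which understates the change of low genes. MYCL did not pass the filter, so 9 of the 10 genes were tested. After siSIRT6, 1 of the 9 was called higher and 3 lower, where 23.9% of all tested genes were called higher, 26.9% lower and 50.8% in either direction. After siKDM5C, 1 was called higher and 3 lower, where 25.6% of all genes were called higher, 25.9% lower and 51.5% in either direction. Between siSIRT6 and siKDM5C cells, 0 were called higher and 3 lower in siSIRT6 cells, against 18.6% higher, 21.3% lower and 39.9% in either direction among all genes; limma gave MXD4, MXI1, MNT, MAX, MGA and MLXIP log2 differences of −0.04 to 0.17 there. At an unadjusted p under 0.05, 1 of these, MGA, was higher in siSIRT6 than in siKDM5C cells, and voom on recovered reads called that gene. The 2 knockdowns share the control libraries, so their differences from control are not independent. The number of network genes called was therefore close to, or below, the share of all genes called, and what follows describes single genes.

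**Figure D1:**
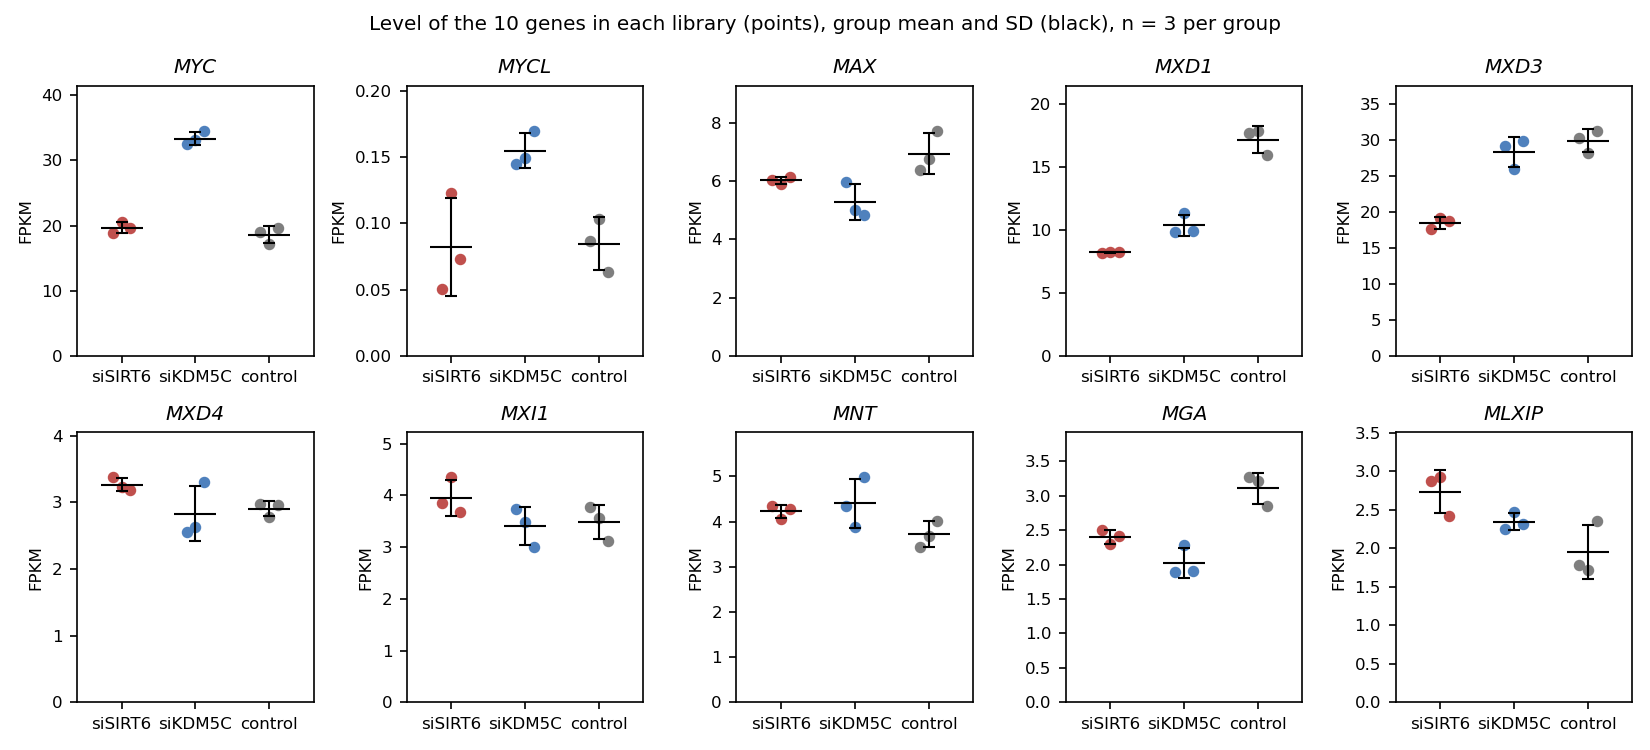
FPKM of the 10 genes in each library, with groups from left to right siSIRT6, siKDM5C and control; each point is 1 library, and black bars are the group mean and SD (n = 3 per group). Axes start at 0 and differ between genes. MYC stands apart in the siKDM5C libraries (32.5 to 34.5 FPKM), and MXD1 is lower in every library of both knockdowns (8.19 to 11.4 FPKM) than in the controls (15.9 to 17.9 FPKM).

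MYC, the activator at the centre of the network, rose after siKDM5C and was not called after siSIRT6. Its levels were 18.9, 20.5 and 19.6 FPKM in the 3 siSIRT6 libraries. They were 32.5, 33.1 and 34.5 FPKM in the siKDM5C libraries. They were 19.1, 17.2 and 19.6 FPKM in the control libraries. All 3 siKDM5C libraries lay above every other library, while siSIRT6 and control libraries overlapped. MYC in siKDM5C cells averaged 179% of control, a log2 difference of 0.81 ± 0.061 (SE, limma adjusted p = 1.59e-05). After siSIRT6 the log2 difference was 0.07 (95% interval −0.06 to 0.21, limma adjusted p = 0.334). The difference between siSIRT6 and siKDM5C cells was itself called, at −0.73 ± 0.061 log2 (limma adjusted p = 4.71e-05). Among the 16135 tested genes, 7.98% differed by more than MYC did after siKDM5C.

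MYCL, the MYC paralogue best known from small cell lung cancer, was barely detected. It had 0.0502, 0.123 and 0.0734 FPKM in siSIRT6 libraries, from 5, 12 and 10 recovered reads. It had 0.145, 0.150 and 0.170 FPKM in siKDM5C libraries, from 14, 14 and 20 reads. It had 0.0868, 0.104 and 0.0635 FPKM in control libraries, from 8, 10 and 6 reads. The siKDM5C libraries lay above the others, but with no filter on low values limma gave an adjusted p of 0.0566 for siKDM5C against control, so no difference was detectable at this depth. MYCN, the neuronal paralogue, was listed at 0 in all siSIRT6 libraries and did not exceed 0.0205 FPKM in the others. MYC was thus the paralogue with the higher level in every library, since the lowest MYC value was 17.2 FPKM.

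MAX, the partner of all of these factors, fell after siKDM5C. It had 6.02, 5.91 and 6.15 FPKM in siSIRT6 libraries, 5.98, 5.02 and 4.82 FPKM in siKDM5C libraries and 6.38, 6.74 and 7.72 FPKM in control libraries. Every knockdown library lay below every control library, and the 2 knockdowns overlapped. The siKDM5C mean was 75.9% of control (−0.34 ± 0.085 log2, SE, limma adjusted p = 0.00939). After siSIRT6 the log2 difference was −0.17 (95% interval −0.37 to 0.02, limma adjusted p = 0.119). The difference between siSIRT6 and siKDM5C cells was 0.17 log2 (95% interval −0.02 to 0.36, limma adjusted p = 0.148); it was called without siKDM5C replicate 1 (0.25 log2, adjusted p = 0.0416). The antisense transcript ENSG00000259118 shares 184 exon bases with MAX and averaged 6.59 FPKM in siSIRT6, 6.38 FPKM in siKDM5C and 7.62 FPKM in control cells, with no call. FNTB, the farnesyltransferase beta subunit on the opposite strand of the locus, shares no exon base with MAX. It was called lower after siSIRT6 (−0.36 log2) and after siKDM5C (−0.58 log2). CHURC1-FNTB, also on the opposite strand, likewise shares no exon base with MAX. It was called lower after siKDM5C (−0.39 log2, limma adjusted p = 0.0107) and not after siSIRT6 (−0.09 log2, adjusted p = 0.460).

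The repressor MXD1 (MAD1), a MYC antagonist induced in differentiating cells, fell in both knockdowns. It had 8.19, 8.24 and 8.30 FPKM in siSIRT6 libraries. It had 9.84, 11.4 and 9.95 FPKM in siKDM5C libraries. It had 17.7, 17.9 and 15.9 FPKM in control libraries. The 3 groups did not overlap, with siSIRT6 lowest and control highest. MXD1 stood at 48.0% of control after siSIRT6 (−0.97 ± 0.067 log2, SE, limma adjusted p = 9.57e-06). It stood at 60.5% of control after siKDM5C (−0.68 ± 0.067 log2, limma adjusted p = 6.90e-05). The difference between the knockdowns was called as well, at −0.30 ± 0.067 log2 for siSIRT6 against siKDM5C (limma adjusted p = 0.00793). In size, 4.96% of tested genes differed by more than MXD1 after siSIRT6 and 12.8% after siKDM5C. SNRNP27, a splicing factor gene on the same strand that shares 237 exon bases with MXD1, was called lower after siKDM5C (−0.47 log2) and was not called after siSIRT6 (−0.31 log2, limma adjusted p = 0.0757). The siKDM5C difference of SNRNP27 was no longer called once control replicate 1 (limma adjusted p = 0.0538) or 2 (0.0524) was left out. After siSIRT6 SNRNP27 was called without control replicate 3 (limma adjusted p = 0.0215) or siKDM5C replicate 2 (0.0310). It was also called there with only siSIRT6 and control libraries (limma adjusted p = 0.0375), with protein-coding genes only (0.0449) and by voom on recovered reads (0.0379). The overlap of SNRNP27 covers 3.73% of the MXD1 exons, and its part in the MXD1 values was not tested.

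MXD3 (MAD3), the family member linked to proliferating cells, fell after siSIRT6 and was not called after siKDM5C. It had 17.6, 19.1 and 18.7 FPKM in siSIRT6 libraries. It had 29.1, 25.9 and 29.9 FPKM in siKDM5C libraries. It had 30.2, 28.1 and 31.2 FPKM in control libraries. The siSIRT6 libraries lay below all others, and siKDM5C and control libraries overlapped. The siSIRT6 mean was 61.8% of control (−0.67 ± 0.068 log2, SE, limma adjusted p = 8.47e-05), and siSIRT6 was lower than siKDM5C by the same test (−0.59 ± 0.068 log2, adjusted p = 0.00027). After siKDM5C the log2 difference was −0.08 (95% interval −0.23 to 0.08, limma adjusted p = 0.383).

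The MXD3 values cannot be told apart from those of its neighbours with certainty. MXD3 lies on the minus strand of chromosome 5 and shares 1158 exon bases, 22.5% of its exons, with PRELID1 on the opposite strand, a carrier of phospholipids into mitochondria. It shares a further 926 bases, 18.0%, with RAB24 on the same strand. The kit marks strand, but the sources used here do not say whether the counting used it. PRELID1 averaged 74.5 ± 3.53 FPKM in siSIRT6, 121 ± 13.0 FPKM in siKDM5C and 120.5 ± 12.5 FPKM in control cells. Its log2 differences were −0.68 after siSIRT6 (limma adjusted p = 0.000555) and 0.00 after siKDM5C, close to those of MXD3. RAB24 took another course: it averaged 14.1 FPKM in siSIRT6, 13.1 FPKM in siKDM5C and 19.3 FPKM in control cells, and was called lower after siSIRT6 (−0.43 log2) and after siKDM5C (−0.53 log2). The ratio of MXD3 to PRELID1 lay between 0.228 and 0.257 in all 9 libraries, so the share of MXD3 reads that stems from PRELID1 was not tested and MXD3 is uncertain.

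**Figure D2:**
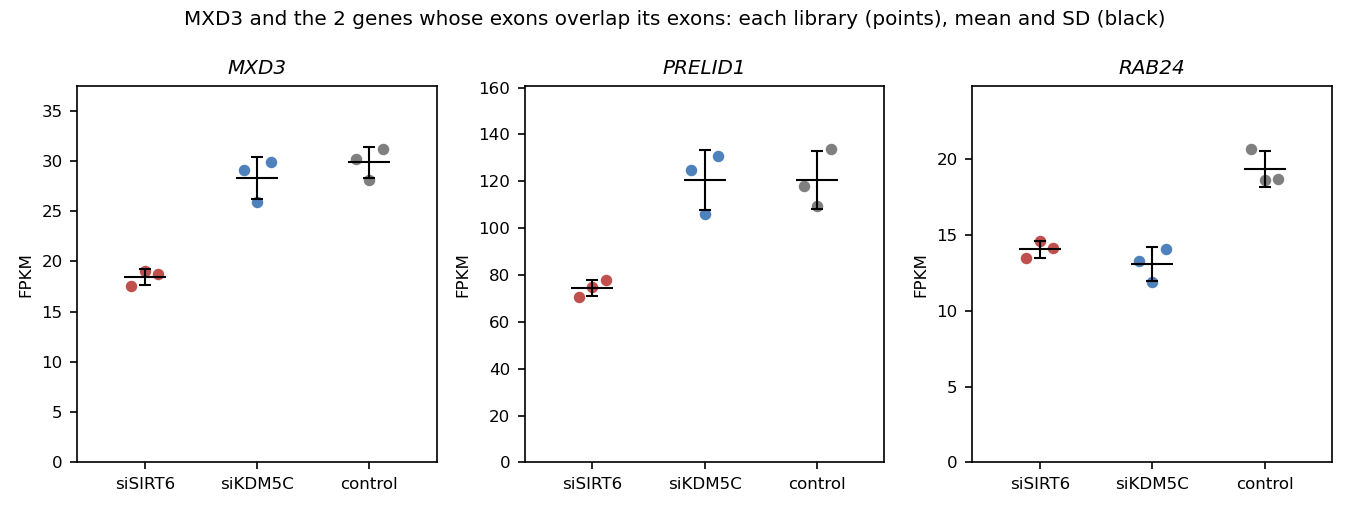
FPKM of MXD3, PRELID1 and RAB24 in each library, with siSIRT6, siKDM5C and control from left to right; points are libraries and black bars the mean and SD (n = 3). MXD3 and PRELID1 are both lowest in siSIRT6 (MXD3 17.6 to 19.1 FPKM) and overlap between siKDM5C and control, while RAB24 is lower in both knockdowns than in control.

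MXD4, MXI1 and MNT, the remaining MAX-bound repressors, were not called in either knockdown. MXD4 had 3.37, 3.22 and 3.19 FPKM in siSIRT6, 2.56, 2.64 and 3.30 FPKM in siKDM5C and 2.98, 2.78 and 2.95 FPKM in control libraries. Its log2 differences were 0.13 after siSIRT6 (95% interval −0.05 to 0.30) and −0.03 after siKDM5C (95% interval −0.21 to 0.14). The 3 siSIRT6 libraries lay above the controls, but by less than the test could call. MXI1, a repressor from a locus on chromosome 10, had 3.86, 4.35 and 3.67 FPKM in siSIRT6, 3.73, 3.50 and 3.00 FPKM in siKDM5C and 3.78, 3.57 and 3.13 FPKM in control libraries. All 3 groups of MXI1 overlapped, with intervals of −0.06 to 0.34 log2 after siSIRT6 and −0.23 to 0.17 log2 after siKDM5C. MNT, the antagonist that is present in most proliferating cells, had 4.35, 4.06 and 4.28 FPKM in siSIRT6, 4.35, 3.89 and 4.98 FPKM in siKDM5C and 3.45, 3.69 and 4.02 FPKM in control libraries. The siSIRT6 libraries lay just above the controls and the siKDM5C libraries overlapped them. The MNT log2 difference was 0.15 after siSIRT6 (limma adjusted p = 0.156) and 0.19 after siKDM5C (limma adjusted p = 0.0760); the second was called without siKDM5C replicate 2 (0.26 log2, adjusted p = 0.0202) and by voom on recovered reads (0.25 log2, adjusted p = 0.0470). An unnamed antisense transcript, ENSG00000262456, shares 1065 exon bases with MNT, 12.2% of its exons, and was called higher in both knockdowns (0.28 log2 after siSIRT6, 0.31 log2 after siKDM5C). Both of these calls were lost without control replicate 1 (limma adjusted p = 0.114 after siSIRT6 and 0.0871 after siKDM5C) and without control replicate 2 (0.106 and 0.0805). Both were lost as well with no filter on low values (limma adjusted p = 0.0792 and 0.05675). The first was also lost without siSIRT6 replicate 1 (limma adjusted p = 0.0964) or 3 (0.123), and the second without siKDM5C replicate 3 (0.0715).

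**Figure D3:**
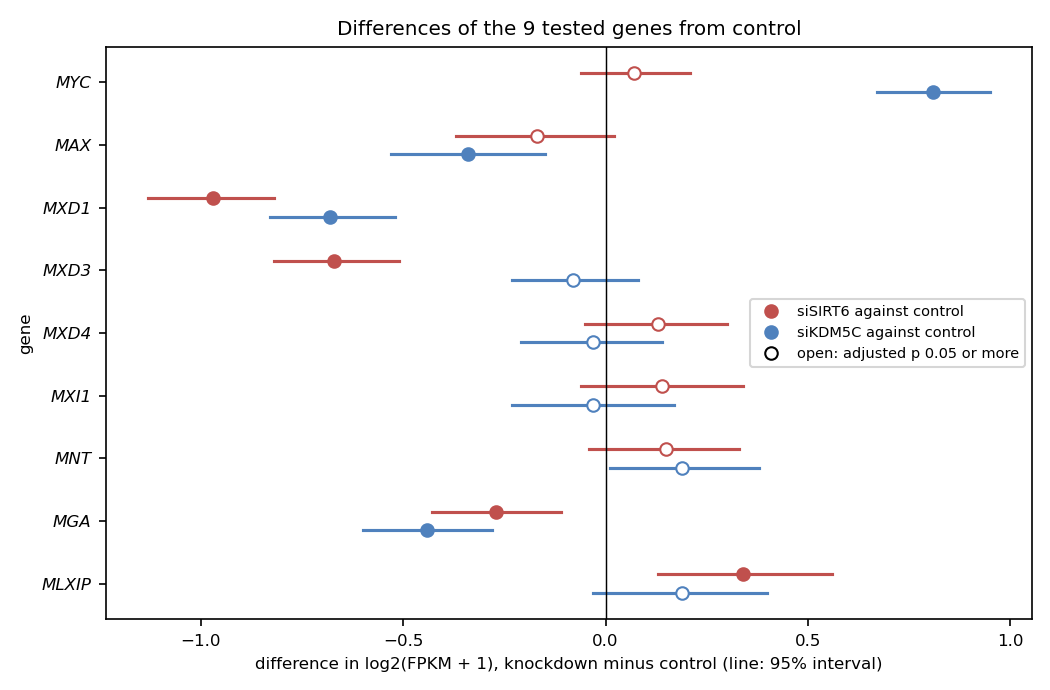
Difference in log2(FPKM + 1) from control for the 9 tested genes, siSIRT6 (red) above siKDM5C (blue) for each gene; lines are 95% intervals, not adjusted for the number of genes, and filled points have an adjusted p under 0.05. MYC lies to the right for siKDM5C only (0.81, against 0.07 for siSIRT6), and MXD1 lies to the left for both (−0.97 for siSIRT6 and −0.68 for siKDM5C).

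The balance of antagonist to activator transcripts was described by the summed FPKM of MXD1, MXD3, MXD4, MXI1 and MNT divided by that of MYC, with no test. The ratio was 1.98, 1.90 and 1.95 in siSIRT6 libraries. It was 1.53, 1.43 and 1.48 in siKDM5C libraries. It was 3.04, 3.26 and 2.92 in control libraries. Both knockdowns lay below the controls in every library. In siSIRT6 cells the antagonist sum was 38.1 ± 0.820 FPKM and MYC 19.7 ± 0.834 FPKM, against 57.1 ± 1.04 FPKM and 18.6 ± 1.26 FPKM in control cells. In siKDM5C cells the antagonist sum was 49.3 ± 1.90 FPKM and MYC 33.4 ± 1.05 FPKM. Without MXD3, whose reads are uncertain, the ratio averaged 1.00 ± 0.0409 in siSIRT6, 0.631 ± 0.0157 in siKDM5C and 1.47 ± 0.147 in control cells, with the same order of groups. MAX to MYC averaged 0.307 ± 0.0168 in siSIRT6, 0.158 ± 0.0229 in siKDM5C and 0.373 ± 0.0338 in control cells. These are ratios of transcripts and say nothing of protein, which was not measured.

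**Figure D4:**
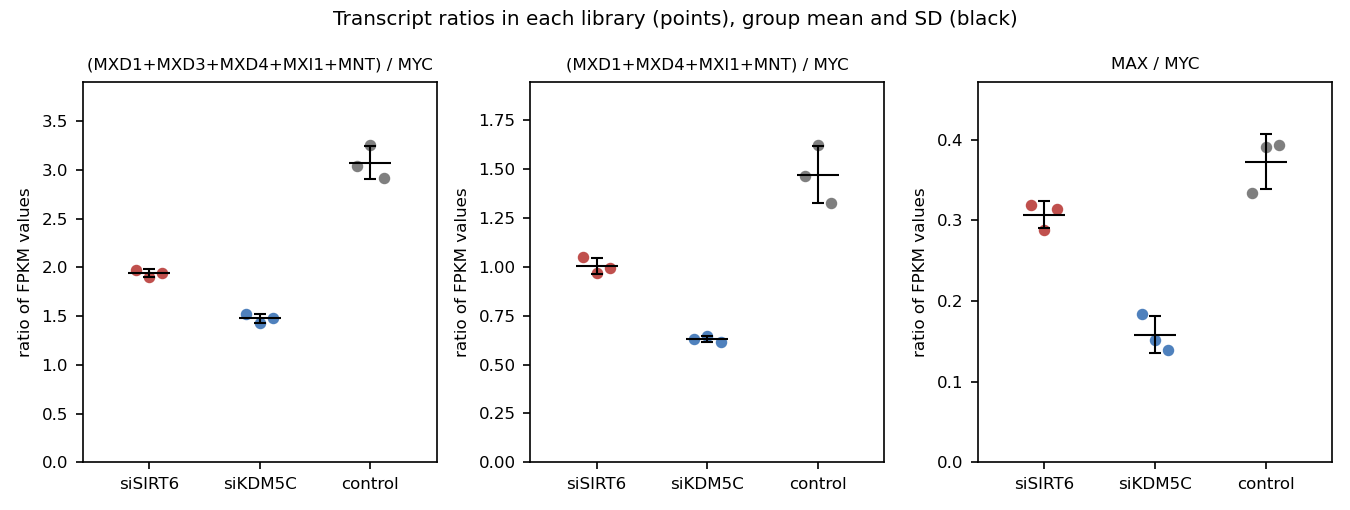
Ratios of FPKM values in each library, with siSIRT6, siKDM5C and control from left to right: the summed antagonists over MYC, the same without MXD3, and MAX over MYC; points are libraries and black bars the mean and SD (n = 3). The siKDM5C libraries are lowest in all 3 panels, and the antagonist ratio averages 1.94 in siSIRT6, 1.48 in siKDM5C and 3.07 in control cells.

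The order of mean levels within the network was the same in siSIRT6 and siKDM5C cells and another in control cells. In siSIRT6 cells it ran MYC, MXD3, MXD1, MAX, MNT, MXI1, MXD4, MLXIP, MGA and MYCL from high to low, and the ranges of MYC and MXD3, of MNT and MXI1, and of MLXIP and MGA overlapped. In siKDM5C cells it ran MYC, MXD3, MXD1, MAX, MNT, MXI1, MXD4, MLXIP, MGA and MYCL, with overlap between MAX and MNT, between MXI1 and MXD4, and between MLXIP and MGA. In control cells it ran MXD3, MYC, MXD1, MAX, MNT, MXI1, MGA, MXD4, MLXIP and MYCL. There, MXD1 and MYC overlapped (15.9 to 17.9 FPKM and 17.2 to 19.6 FPKM), as did each neighbouring pair from MNT to MXD4. The place of MXD3 in these orders carries the reservation on its reads.

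MGA, the large scaffold that joins MAX to PRC1.6, fell in both knockdowns. It had 2.50, 2.30 and 2.41 FPKM in siSIRT6, 1.90, 2.28 and 1.91 FPKM in siKDM5C and 3.26, 3.21 and 2.85 FPKM in control libraries. Every knockdown library lay below every control library. MGA was at 77.3% of control after siSIRT6 (−0.27 ± 0.071 log2, SE, limma adjusted p = 0.0125) and at 65.3% after siKDM5C (−0.44 ± 0.071 log2, limma adjusted p = 0.00106). The difference between siSIRT6 and siKDM5C cells, 0.17 log2, was not called (limma adjusted p = 0.0898), although the 2 groups did not overlap; it was called without siKDM5C replicate 2 (0.23 log2, adjusted p = 0.0264) and by voom on recovered reads (0.25 log2, adjusted p = 0.0326). MGA is long, and between 709 and 1270 reads per library lay behind its low FPKM.

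Of the 14 partners of MGA in PRC1.6, 13 were tested. After siSIRT6, 6 were called higher and 5 lower (46.2% and 38.5%, where 23.9% and 26.9% of all genes were). Called after siKDM5C were 6 higher and 4 lower (46.2% and 30.8%, where 25.6% and 25.9% of all genes were). TFDP1, the dimer partner of E2F factors, went in opposite directions: it averaged 13.2 ± 0.414 FPKM in siSIRT6, 30.1 ± 1.47 FPKM in siKDM5C and 18.4 ± 1.13 FPKM in control cells (−0.45 log2 after siSIRT6, 0.68 log2 after siKDM5C). CBX3, the heterochromatin protein HP1 gamma, averaged 44.1 FPKM in siSIRT6, 29.5 FPKM in siKDM5C and 55.0 FPKM in control cells, and fell in both; its siSIRT6 call was lost without control replicate 3 (limma adjusted p = 0.0579) or without siSIRT6 replicate 1 (0.0509), 2 (0.0550) or 3 (0.0503). L3MBTL2, a chromatin-compacting subunit, fell by 0.30 log2 after siSIRT6 and by 0.40 log2 after siKDM5C. Over the 13 tested partners the median log2 difference was 0.17 after siSIRT6 and −0.11 after siKDM5C, where the median of all genes was −0.045 and −0.019. The list shares HDAC1, HDAC2 and WDR5 with lists described below.

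The germline genes listed as silenced by PRC1.6, known mostly from mouse, were low, apart from TDRKH. Whether PRC1.6 silences them in PANC-1 cells was not tested. Of 13 listed, 10 had values, and 1, the piRNA pathway gene TDRKH, was tested. The other germline genes described here were singled out after their values were seen. TDRKH averaged 4.88 ± 0.291 FPKM in siSIRT6, 5.55 ± 0.292 FPKM in siKDM5C and 4.37 ± 0.324 FPKM in control cells; it was called higher after siKDM5C (0.29 log2, limma adjusted p = 0.00612) and not after siSIRT6 (0.13 log2, adjusted p = 0.124). The other 9 did not pass the filter; SYCE2, a synaptonemal complex gene, reached 1.25 FPKM, STAG3, a meiotic cohesin subunit, 0.787 FPKM and SYCP3, another synaptonemal complex gene, 0.663 FPKM, while DDX4, DAZL and TDRD1 averaged under 0.05 FPKM in every group. With no filter on low values, limma called MEI1, a meiotic recombination gene, lower after siSIRT6 (adjusted p = 0.00146) and after siKDM5C (0.00383), with means of 0.00528 FPKM in siSIRT6, 0.0229 FPKM in siKDM5C and 0.104 FPKM in control cells. It called SMC1B, a meiotic cohesin subunit, higher after siKDM5C (adjusted p = 0.0380), with means of 0.0179 FPKM in siSIRT6, 0.0761 FPKM in siKDM5C and 0.0170 FPKM in control cells. MAEL, TEX101 and SLC25A31 were not analysed here.

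MLXIP, the glucose-responsive partner of MLX, was the one gene of the network called higher after siSIRT6. It had 2.87, 2.92 and 2.41 FPKM in siSIRT6, 2.25, 2.47 and 2.32 FPKM in siKDM5C and 1.78, 1.71 and 2.35 FPKM in control libraries. The lowest siSIRT6 library lay just above the highest control library, control replicate 3, while siKDM5C and control libraries overlapped. The siSIRT6 mean was 140% of control (0.34 ± 0.094 log2, SE, limma adjusted p = 0.0149). It no longer passed when any 1 of control replicates 1 and 2 or siSIRT6 replicates 1 and 2 was left out (limma adjusted p = 0.0531, 0.0539, 0.0518 and 0.0554, in that order), nor after removal of GC and length trends (0.22 log2, adjusted p = 0.0861). After siKDM5C the difference was 0.19 log2 (95% interval −0.03 to 0.40, limma adjusted p = 0.126), and without control replicate 3 it was called (0.28 log2, adjusted p = 0.0213). The difference between siSIRT6 and siKDM5C cells was not called (0.16 log2, limma adjusted p = 0.222).

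MLX, the partner that MLXIP needs to bind DNA, fell in both knockdowns. It had 10.02, 10.4 and 10.7 FPKM in siSIRT6, 7.35, 7.17 and 7.46 FPKM in siKDM5C and 12.7, 13.7 and 11.9 FPKM in control libraries. The 3 groups did not overlap. The log2 differences were −0.28 ± 0.058 after siSIRT6 (SE, limma adjusted p = 0.00432) and −0.72 ± 0.058 after siKDM5C (adjusted p = 2.24e-05), and siSIRT6 cells were above siKDM5C cells by 0.45 ± 0.058 (adjusted p = 0.000517). MLXIPL (ChREBP), the liver and fat counterpart of MLXIP, did not pass the filter, with means of 0.388 FPKM in siSIRT6, 0.217 FPKM in siKDM5C and 0.728 FPKM in control cells. All libraries of both knockdowns lay below the controls, and with no filter on low values limma called MLXIPL lower after siSIRT6 (−0.32 log2, adjusted p = 0.0173) and after siKDM5C (−0.51 log2, adjusted p = 0.00202).

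Of 6 genes known as targets of MLXIP or its counterpart with MLX, 5 were tested. After siSIRT6, 2 were called higher and 1 lower (40% and 20%, where 23.9% and 26.9% of all genes were). Called after siKDM5C were 3 higher and 1 lower (60% and 20%, where 25.6% and 25.9% of all genes were). TXNIP, the thioredoxin-binding brake on glucose uptake and the best known MLXIP target, had 7.40, 7.14 and 8.00 FPKM in siSIRT6, 14.0, 14.9 and 13.2 FPKM in siKDM5C and 8.43, 8.31 and 8.24 FPKM in control libraries. It rose after siKDM5C (0.68 ± 0.059 log2, SE, limma adjusted p = 3.32e-05), was not called after siSIRT6 (−0.13 log2, 95% interval −0.27 to 0.00, adjusted p = 0.0926), and was lower in siSIRT6 than in siKDM5C cells (−0.82 log2, adjusted p = 2.46e-05). HK2, the hexokinase that commits glucose to glycolysis, had 10.9, 10.6 and 10.7 FPKM in siSIRT6, 16.3, 15.1 and 15.7 FPKM in siKDM5C and 9.39, 9.02 and 9.63 FPKM in control libraries. HK2 rose after siSIRT6 (0.18 log2, limma adjusted p = 0.0132) and by more after siKDM5C (0.69 log2, adjusted p = 1.08e-05), with a called difference between the knockdowns (−0.51 log2 for siSIRT6 against siKDM5C). The siSIRT6 call of HK2 was lost without control replicate 2 (limma adjusted p = 0.0536) or siSIRT6 replicate 1 (0.0522). PFKFB3, which makes the activator of phosphofructokinase, rose by 0.22 log2 after siSIRT6 and by 0.50 log2 after siKDM5C. Its siSIRT6 call was lost with the replicate block (limma adjusted p = 0.0662) and without control replicate 1 (0.116) or 3 (0.0633) or any 1 of siSIRT6 replicates 1 to 3 (0.0721 to 0.104). It was also lost with no filter on low values (limma adjusted p = 0.0689) and after removal of GC and length trends (0.0506). KLF10, a zinc-finger repressor, fell in both (−0.28 log2 after siSIRT6, −0.63 log2 after siKDM5C). ARRDC4, the arrestin relative of TXNIP, was not called, and PKLR stayed under 0.1 FPKM. HK2 is also a known MYC target.

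E-boxes were looked up in the 250 bases before each start in RefSeq's promoter windows (GRCh38.p14), which are shown because they place the shared binding letters in front of the genes described. Windows were found for 9 of the 10 genes used, 14 windows in all; the MYC window was not used here. CACGTG, which reads the same on both strands, was present in front of 2 of the 9 genes, MNT and MXD4, and of MLX, ARRDC4 and 1 start each of HK2, PFKFB3 and PKLR. It was present in 6.34% of all 35116 windows. Neither MXD1, MXD3, MAX nor MGA held it in these windows. TXNIP held no CACGTG, but 2 copies of CACGNG on one strand 5 bases apart, the arrangement of a carbohydrate response element; it was found, searching both strands, in 0.0456% of all windows. A CACGTG site can also match CACGNG. The 4 stretches are printed 5′ to 3′ on the gene's strand, with the matched letters in capitals: MNT at chr17:2401061-2401310 on the minus strand (site from 193 bases before the start), MXD4 at chr4:2262110-2262359 on the minus strand (238 bases before), HK2 at chr2:74834920-74835169 on the plus strand (194 and 149 bases before), and TXNIP at chr1:145996580-145996829 on the minus strand (88 and 77 bases before).
MNT: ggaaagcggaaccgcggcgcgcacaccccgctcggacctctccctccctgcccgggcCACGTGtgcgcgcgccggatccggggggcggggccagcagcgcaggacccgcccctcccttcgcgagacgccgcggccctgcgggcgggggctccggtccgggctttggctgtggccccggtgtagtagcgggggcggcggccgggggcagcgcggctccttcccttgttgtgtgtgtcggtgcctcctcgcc
MXD4: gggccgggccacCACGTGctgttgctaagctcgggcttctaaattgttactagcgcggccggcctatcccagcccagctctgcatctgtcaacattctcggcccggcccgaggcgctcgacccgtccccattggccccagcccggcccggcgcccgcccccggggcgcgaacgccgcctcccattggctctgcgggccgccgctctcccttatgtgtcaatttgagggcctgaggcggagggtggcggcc
HK2: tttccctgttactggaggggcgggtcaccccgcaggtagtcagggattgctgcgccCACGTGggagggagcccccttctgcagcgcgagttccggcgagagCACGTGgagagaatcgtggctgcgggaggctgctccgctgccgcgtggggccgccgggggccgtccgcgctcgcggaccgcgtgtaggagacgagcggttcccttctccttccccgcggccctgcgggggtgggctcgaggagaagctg
TXNIP: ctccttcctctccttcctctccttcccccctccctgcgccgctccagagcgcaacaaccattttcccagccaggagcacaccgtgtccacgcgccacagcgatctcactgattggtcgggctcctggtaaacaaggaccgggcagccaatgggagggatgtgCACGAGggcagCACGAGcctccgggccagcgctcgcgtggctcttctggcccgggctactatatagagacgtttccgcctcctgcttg
These matches describe letters and not binding. Of the 4 genes, HK2 and TXNIP were called higher after siKDM5C, and MNT and MXD4 were not called in either knockdown.

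The known regulators of MYC transcription and of its mRNA gave mixed results. Of 14 listed, 13 were tested. After siSIRT6, 2 were called higher and 7 lower (15.4% and 53.8%, where 23.9% and 26.9% of all genes were). Called after siKDM5C were 2 higher and 6 lower (15.4% and 46.2%, where 25.6% and 25.9% of all genes were). STAT3, a cytokine-activated factor that binds the MYC promoter, averaged 38.6 ± 0.386 FPKM in siSIRT6, 24.0 ± 0.669 FPKM in siKDM5C and 19.8 ± 0.616 FPKM in control cells, and rose in both (0.93 log2 after siSIRT6, 0.27 log2 after siKDM5C). CTNNB1, the Wnt effector beta-catenin, averaged 14.4 ± 0.232 FPKM in siSIRT6, 23.3 ± 0.537 FPKM in siKDM5C and 23.4 ± 0.536 FPKM in control cells; it fell after siSIRT6 (−0.67 log2) and was not called after siKDM5C (−0.01 log2, 95% interval −0.10 to 0.09). PVT1, the long non-coding RNA gene next to MYC, averaged 1.30 FPKM in siSIRT6, 1.82 FPKM in siKDM5C and 2.97 FPKM in control cells, and fell in both (−0.79 log2 after siSIRT6, −0.49 log2 after siKDM5C). MYC and its neighbour thus had opposite signs after siKDM5C. CNBP, a nucleic acid-binding activator of MYC, fell by 0.18 log2 after siSIRT6 and by 0.37 log2 after siKDM5C. NFATC2, a calcium-regulated transcription factor, rose after siSIRT6 (0.28 log2) and fell after siKDM5C (−0.33 log2); the rise was no longer called without control replicate 3 (limma adjusted p = 0.0508) or siSIRT6 replicate 2 (0.0549) or 3 (0.0527). NOTCH1, a receptor whose cleaved form activates MYC, was called higher after siKDM5C (0.28 log2) and not after siSIRT6 (0.16 log2, limma adjusted p = 0.0837). It was called after siSIRT6 without siKDM5C replicate 1 (limma adjusted p = 0.0439) or 3 (0.0369) and under median-of-ratios scaling (0.0390). The same held with only siSIRT6 and control libraries in the fit (limma adjusted p = 0.0240). The siKDM5C call of NOTCH1 was lost after removal of GC and length trends (0.10 log2, limma adjusted p = 0.0861).

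Genes that set the stability of the MYC protein were all tested, 22 in number. After siSIRT6, 7 were called higher and 10 lower (31.8% and 45.5%, where 23.9% and 26.9% of all genes were). Called after siKDM5C were 4 higher and 5 lower (18.2% and 22.7%, where 25.6% and 25.9% of all genes were). PLK1, a mitotic kinase that stabilises MYC, averaged 8.30 ± 0.161 FPKM in siSIRT6, 20.1 ± 0.521 FPKM in siKDM5C and 24.4 ± 1.43 FPKM in control cells (−1.45 log2 after siSIRT6, −0.26 log2 after siKDM5C, both called). AURKA, a mitotic kinase that protects MYC proteins from FBXW7, fell after siSIRT6 (−0.84 log2) and was not called after siKDM5C (−0.13 log2, 95% interval −0.28 to 0.01). PPP2CA, the catalytic subunit of protein phosphatase 2A, fell by 0.59 log2 after siSIRT6 and by 0.25 log2 after siKDM5C. PPP2R5A, the regulatory subunit that directs the phosphatase to MYC, rose in both (0.74 log2 after siSIRT6, 0.40 log2 after siKDM5C). GSK3B, the kinase that marks MYC for degradation, rose after siSIRT6 (0.60 log2) and was not called after siKDM5C (0.12 log2) unless GC and length trends were removed (0.20 log2, limma adjusted p = 0.00259). FBXO32, an F-box protein of a MYC ubiquitin ligase, averaged 5.09 FPKM in siSIRT6, 7.43 FPKM in siKDM5C and 3.48 FPKM in control cells, and rose in both. FBXW7 itself, singled out after its values were seen, was not called in either knockdown (−0.03 log2 after siSIRT6, −0.09 log2 after siKDM5C).

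Of 19 proteins that MYC binds at promoters, most of them co-activators, 18 were tested. Among them ZBTB17, called higher after siKDM5C (0.40 log2), is not a classic co-activator. After siSIRT6, 1 was called higher and 8 lower (5.56% and 44.4%, where 23.9% and 26.9% of all genes were), and after siKDM5C 4 higher and 4 lower (22.2% each, where 25.6% and 25.9% of all genes were). CDK9, the kinase that releases paused RNA polymerase, rose in both to 15.1 ± 0.163 FPKM in siSIRT6 and 15.6 ± 0.441 FPKM in siKDM5C cells, against 9.45 ± 1.15 FPKM in control cells. EP300, an acetyltransferase, fell by 0.43 log2 after siSIRT6 and by 0.40 log2 after siKDM5C. WDR5, the histone H3 reader that anchors MYC to chromatin, fell after siSIRT6 (−0.52 log2) and was not called after siKDM5C (−0.11 log2, 95% interval −0.23 to 0.02), except without siKDM5C replicate 3 (−0.15 log2, limma adjusted p = 0.0367) and after removal of GC and length trends (−0.17 log2, 0.00465). KAT5, the acetyltransferase TIP60, fell after siSIRT6 (−0.15 log2) and after siKDM5C (−0.45 log2). The siSIRT6 call of KAT5 was lost without control replicate 2 (limma adjusted p = 0.108), without siSIRT6 replicate 1 (0.0940), 2 (0.0894) or 3 (0.0569) and under median-of-ratios scaling (0.0712).

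The SIN3 and histone deacetylase complex, through which the MXD repressors act, was represented by 16 genes, all tested. After siSIRT6, 4 were called higher and 5 lower (25% and 31.2%, near the 23.9% and 26.9% of all genes), and after siKDM5C 6 higher and 3 lower (37.5% and 18.8%, where 25.6% and 25.9% of all genes were). HDAC1, a class I deacetylase, had 51.6, 50.5 and 49.3 FPKM in siSIRT6, 59.6, 49.2 and 51.4 FPKM in siKDM5C and 19.7, 20.2 and 21.9 FPKM in control libraries. Every knockdown library was above every control library (1.25 log2 after siSIRT6, limma adjusted p = 4.84e-06; 1.33 log2 after siKDM5C, adjusted p = 3.49e-06). HDAC2 rose by less, by 0.35 log2 after siSIRT6 and by 0.22 log2 after siKDM5C, and its siKDM5C call was lost without control replicate 3 (limma adjusted p = 0.0577) and with only siKDM5C and control libraries in the fit (0.0577). SIN3A, the scaffold that the MXD proteins contact, averaged 5.11 ± 0.228 FPKM in siSIRT6, 6.62 ± 0.0219 FPKM in siKDM5C and 9.10 ± 0.341 FPKM in control cells, and fell in both. Its paralogue SIN3B rose after siKDM5C (0.37 log2) and was not called after siSIRT6 (0.02 log2). SAP30L, a SIN3 subunit, likewise rose after siKDM5C (0.48 log2) and was not called after siSIRT6 (0.15 log2) except under median-of-ratios scaling (0.18 log2, limma adjusted p = 0.0247), and ARID4B, a chromatin-binding subunit, fell after siKDM5C (−0.33 log2).

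Genes that MYC is known to induce moved in both directions in each knockdown. Of 48 listed, 46 were tested. After siSIRT6, 5 were called higher, 26 lower and 15 were not called (10.9% higher and 56.5% lower, where 23.9% and 26.9% of all genes were), with a median of −0.22 log2 beside −0.045 over all genes. After siKDM5C, 9 were called higher, 14 lower and 23 were not called (19.6% higher and 30.4% lower, where 25.6% and 25.9% of all genes were), with a median of −0.03 log2 beside −0.019 over all genes. Between siSIRT6 and siKDM5C cells, 6 were called higher and 20 lower in siSIRT6 cells, with a median of −0.14 log2 beside −0.024. These were 13% and 43.5% of the tested list, where 18.6% and 21.3% of all genes were called. NOLC1, a nucleolar chaperone of ribosome assembly, had 39.3, 40.7 and 39.2 FPKM in siSIRT6, 54.9, 57.4 and 52.7 FPKM in siKDM5C and 18.2, 18.1 and 18.5 FPKM in control libraries (1.08 log2 after siSIRT6, 1.54 log2 after siKDM5C). EIF4A1, the helicase of translation initiation, rose in both to 135.5 ± 2.30 FPKM in siSIRT6 and 148 ± 7.43 FPKM in siKDM5C cells, against 82.4 ± 1.27 FPKM in control cells. HSPD1, the mitochondrial chaperonin, also rose in both (0.64 log2 after siSIRT6, 0.77 log2 after siKDM5C). TMEM97, an endoplasmic reticulum protein of sterol handling, fell by 0.32 log2 after siSIRT6 and by 0.90 log2 after siKDM5C.

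Several classic MYC targets, singled out after their values were seen, differed between the knockdowns. ODC1, the first enzyme of polyamine synthesis, averaged 39.6 FPKM in siSIRT6, 49.9 FPKM in siKDM5C and 48.9 FPKM in control cells, called lower after siSIRT6 alone (−0.30 log2) and lower in siSIRT6 than in siKDM5C (−0.33 log2, limma adjusted p = 0.0012). CAD, which starts pyrimidine synthesis, was called higher after siKDM5C (0.38 log2). After siSIRT6 (0.17 log2) it was not called in the test as reported. It was called there without siKDM5C replicate 3 (limma adjusted p = 0.0353) and under median-of-ratios scaling (0.0219). The same held with only siSIRT6 and control libraries (limma adjusted p = 0.04455), with protein-coding genes only (0.0463) and by voom on recovered reads (0.0458). UNG, a uracil glycosylase of DNA repair, fell after siSIRT6 (−0.45 log2) and rose after siKDM5C (0.48 log2). The replicative helicase subunits MCM4 and MCM5 followed the same course, at −0.35 and −0.36 log2 after siSIRT6 and 0.26 and 0.27 log2 after siKDM5C. The siKDM5C call of MCM5 was lost without control replicate 1 (limma adjusted p = 0.0751) or 2 (0.0521) or siKDM5C replicate 3 (0.0631). PTMA, which encodes prothymosin alpha, had the opposite signs, at 0.39 log2 after siSIRT6 and −0.41 log2 after siKDM5C. Nucleolin, NCL, was not called in either (−0.05 log2 in both). CCND2 and TERT did not pass the filter and were not tested. TERT averaged 0.0847 FPKM in siSIRT6, 0.245 FPKM in siKDM5C and 0.495 FPKM in control cells, and the groups did not overlap. CCND2 averaged 0.462 FPKM in siSIRT6, 0.237 FPKM in siKDM5C and 0.615 FPKM in control cells. Its siKDM5C libraries lay below the controls, and its siSIRT6 libraries overlapped them.

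Genes that MYC is known to repress also moved in both directions. Of 14 listed, 13 had values and 9 were tested. After siSIRT6, 2 were called higher and 6 lower (22.2% and 66.7%, where 23.9% and 26.9% of all genes were). Called after siKDM5C were 4 higher and 3 lower (44.4% and 33.3%, where 25.6% and 25.9% of all genes were). CDKN1A, the cyclin-dependent kinase inhibitor p21, had 52.9, 52.8 and 54.1 FPKM in siSIRT6, 55.5, 53.5 and 58.3 FPKM in siKDM5C and 131, 127 and 135 FPKM in control libraries. It fell in both (−1.29 log2 after siSIRT6, −1.22 log2 after siKDM5C; the difference between them was −0.06, 95% interval −0.18 to 0.05). CDKN1B, the related inhibitor p27, fell as well (−0.58 log2 after siSIRT6, −0.52 log2 after siKDM5C). THBS1, the anti-angiogenic matrix protein thrombospondin 1, rose in both, to 16.9 ± 0.179 FPKM in siSIRT6 and 9.54 ± 0.583 FPKM in siKDM5C cells, against 2.47 ± 0.173 FPKM in control cells. CLU, the secreted chaperone clusterin, rose in both (1.11 log2 after siSIRT6, 1.01 log2 after siKDM5C). NDRG1, a stress-response gene repressed by MYC, averaged 3.63 ± 0.0364 FPKM in siSIRT6, 11.2 ± 0.343 FPKM in siKDM5C and 4.73 ± 0.253 FPKM in control cells. It was called lower after siSIRT6 (−0.31 log2) and higher after siKDM5C (1.09 log2). The part of MYC in these values was not tested. CDKN2B was not analysed here.

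**Figure D5:**
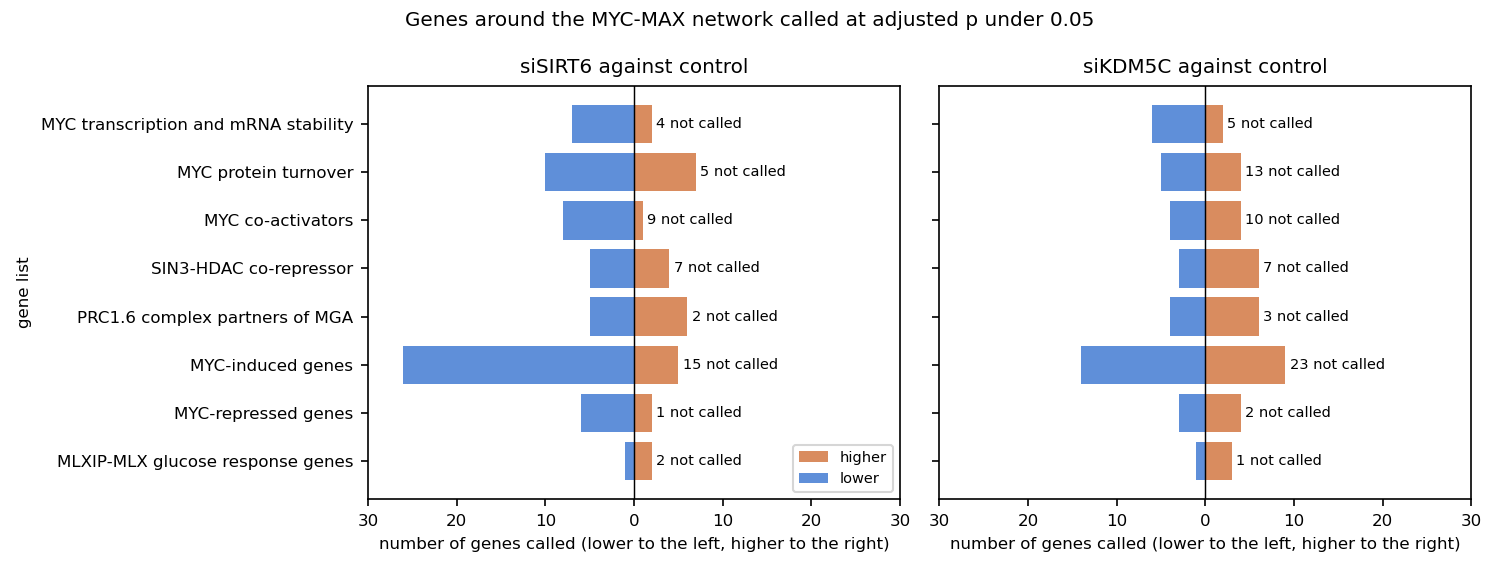
Number of genes of each list called at an adjusted p under 0.05, lower to the left of 0 and higher to the right, with siSIRT6 against control in the left panel and siKDM5C against control in the right; the number not called stands beside each bar. MYC-induced genes have 26 lower and 5 higher after siSIRT6, against 14 lower and 9 higher after siKDM5C.

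The protein-coding genes whose pattern over the 9 libraries was most like that of MYC, by the root mean square difference of centred log2(FPKM + 1), were JUND (0.0583), PITPNC1 (0.0666), RNF157 (0.0749), PTX3 (0.0775) and IL6R (0.0780). JUND, a subunit of the AP-1 factor, averaged 22.3 ± 0.276 FPKM in siSIRT6, 35.0 ± 2.05 FPKM in siKDM5C and 20.4 ± 0.971 FPKM in control cells. PTX3, a secreted pentraxin, averaged 73.9 FPKM in siSIRT6, 112 FPKM in siKDM5C and 68.7 FPKM in control cells. For MXD1, the gene with the largest difference of the network, they were TMEM245 (0.0430), ANKRD33B (0.0466), WDFY1 (0.0476), IAH1 (0.0590) and DNAJC16 (0.0604). TMEM245, a membrane protein, averaged 8.67 ± 0.156 FPKM in siSIRT6, 11.6 ± 1.15 FPKM in siKDM5C and 18.3 ± 1.53 FPKM in control cells. These genes were picked for their likeness and carry no test.

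Groups that did not overlap were common in these data. Of the 9 tested genes, 7 had siSIRT6 libraries all on one side of the controls, where 65.5% of all tested genes did. After siKDM5C 4 of the 9 did so, where 55.7% of all genes did, and between siSIRT6 and siKDM5C 4 of the 9, where 51.7% did.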

How the data were processed

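RNA of 9 PANC-1 libraries was sequenced from TruSeq Stranded mRNA libraries, per the labels' protocols. The authors deposited FPKM per gene for each library; Trimmomatic, HISAT2, HTSeq and Cufflinks and the build hg38 are named in the submitters' processing notes, without versions or settings. The strand setting of the counting and the annotation are not stated in those sources; GENCODE 29 held 35564 of the 36753 genes and was used for exon overlaps. Samples were grouped by their titles.

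FPKM values were tested as log2(FPKM + 1) with limma 3.58.1 (R 4.3.3), with a mean-variance trend, all 9 libraries in 1 fit, no block, at least 1 FPKM in at least 3 libraries, and Benjamini-Hochberg adjustment over 16135 genes. The procedure was tested on simulated data. FPKM steps gave whole reads for 100% of genes above 0 (tolerance 0.01 read), and the lengths equalled the annotated exon union for 58.9%; these recovered reads give the depth, 18201413 to 26910441 per library. Replicates of a group differed beyond counting noise in every pair, and unequally between groups. The mean chi-square per gene was 1.94 to 3.04 in siSIRT6, 11.5 to 16.4 in siKDM5C and 2.45 to 10.8 in control pairs. The fit used 1 spread per gene for all groups, so its SEs do not show this inequality.

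The members and gene lists were chosen with earlier results of these data known. Beside the members, named genes were up to 4 tested genes per list with the smallest adjusted p against control. Up to 2 called against the list's majority were added. The 5 genes most like MYC and MXD1 were also named, as were some of the genes overlapping a member. Lists of up to 6 genes were named in full. Genes named outside this rule are said to be so, apart from SIRT6, KDM5C, the cell type markers and genes given as not analysed. Alternatives were another scaling, pseudocount 0.1, no filter or at least 5 FPKM, only 2 groups, a replicate block, no trend, protein-coding genes only and leaving out each library; voom on recovered reads and removal of GC and length trends were added after seeing the data. Promoter sequences are RefSeq's.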

Additional observations from a re-analysis of the deposited data

How the results depend on the processing

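With a minimum of 5 FPKM in place of 1, fewer genes were tested, and 5367 were called after siSIRT6 and 5418 after siKDM5C. The share of all genes called at this minimum is not given here. Of the network genes only MYC, MAX, MXD1 and MXD3 reached it, and 2 of them, MXD1 and MXD3, were called after siSIRT6. MXD4, MXI1, MNT, MGA and MLXIP stayed under 5 FPKM in every library and were not tested there. Leaving out 1 library at a time gave 6768 to 8787 genes called after siSIRT6, 6977 to 8401 after siKDM5C and 4883 to 6945 between siSIRT6 and siKDM5C. The same left 3 to 4, 4 to 5 and 3 to 4 network genes called in these comparisons. No called difference of a network gene reversed. Of differences that were not called, the sign turned for MXI1 after siKDM5C without control replicate 1 (0.02 log2) or siKDM5C replicate 3 (0.04), for MXD4 after siKDM5C without siKDM5C replicate 1 (0.02) or 2 (0.00), and for MNT between siSIRT6 and siKDM5C without siKDM5C replicate 3 (0.03); leaving out 1 library gave −0.09 to 0.04, −0.12 to 0.02 and −0.11 to 0.03 log2 for these. For single network genes, 480 further alternative values kept direction and call, 8 gained a call and 5, all of MLXIP after siSIRT6, lost it; the report gives each beside its gene, except MXD4 between siSIRT6 and siKDM5C, called without siKDM5C replicate 3 (0.24 log2, adjusted p = 0.01) and after removal of GC and length trends (0.21 log2, adjusted p = 0.0123). The causes were not tested. For list counts, 560 kept their size and 10 moved by over 1.5 times. With no filter, 2 genes were called in place of 1 among the other MAX network genes in both knockdowns, both lower, the second being MLXIPL. Replicate numbers did not pair the libraries: deviations of same-numbered libraries correlated between −0.23 and 0.25. Those of differently numbered libraries correlated between −0.35 (control 3 with siKDM5C 2) and 0.43 (control 3 with siKDM5C 1). With the replicate number as a block, 8130 genes were called after siSIRT6, 8245 after siKDM5C and 6386 between siSIRT6 and siKDM5C, and 4, 4 and 3 network genes. Few reads and the log2(FPKM + 1) scale limit what can be said of MYCL, MYCN, MLXIPL, CCND2, TERT and the germline genes under the filter.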
